A study of Mus musculus with 11 samples.

Results

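The genes of the renal vesicle, the comma-shaped body and the S-shaped body are described here in kidneys of mouse embryos at embryonic day 17, wild-type or homozygous for a Robo2 allele. The 9 genes are Wnt4, Lhx1, Fgf8, Pax8, Irx1, Irx2, Cdh6, Bmper and Pou3f3. They were chosen by name as genes of these first epithelial stages of the nephron, but with earlier results of these data known. Counts over the 9 genes are therefore descriptions and not tests of an independent set. All 9 were among the 18193 genes read on the arrays. The 3' expression arrays comprised 3 wild-type and 3 Robo2 homozygous kidneys with E17R2 titles, 1 wild-type and 1 homozygous kidney with R2E17 titles, and 3 homozygous kidneys with R2NB titles. All 11 carried the same tissue and age label. Arrays are called by genotype and by the number in their titles, so that homozygous replicate 9 is the array titled E17R2MU9. The sources used here do not give the kind of Robo2 allele, the strain, the sex, any pooling of kidneys, or what the letters NB stand for. Free-text labels that speak of human brain conflict with the organism, source and tissue labels, which were followed. Nothing says that replicates came from separate animals, so p-values measure only how far these samples vary, part of which may be technical.

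A nephron begins when signals from the ureteric bud tip induce the mesenchyme around it to condense and become an epithelial ball, the renal vesicle. Wnt4 and Fgf8 are signals made by the induced cells, and Lhx1, Pax8 and other transcription factors act with them as the vesicle folds into the comma-shaped and then the S-shaped body. The parts of the S-shaped body prefigure the podocytes, the proximal tubule, the loop of Henle and the distal tubule, and several of the 9 genes stay on in some of these segments. Robo2 is a receptor for Slit ligands that limits where the ureteric bud grows out. In bulk tissue, fewer cells of a type and less RNA per cell cannot be told apart.

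Values are log2 of RMA intensities. The E17R2 arrays (median intensities of 23.4 to 24.6) and the other 5 arrays (47.1 to 53.4) lay on separate scales, with a gap of 1.02 in log2 at the median gene, and were treated as normalized apart, so levels are compared within each set only. Homozygous replicate 9 stood apart through smooth muscle transcripts, and the R2E17 wild-type array through the 3' minus 5' log2 value of its control probe sets (0.70 for Gapdh and 1.12 for Actb, at most 0.22 and 0.75 elsewhere). In the set of 5 arrays 44% of the genes had a value that was identical on at least a pair of arrays, against 4.05% in the set of 6. Robo2 itself read 3.13, 3.68 and 3.16 in E17R2 wild-type and 2.03, 2.37 and 2.33 in homozygous kidneys, a log2 difference of -1.08 ± 0.18 (SE; limma adjusted p = 0.84). These Robo2 values lay below the median log2 values of the E17R2 arrays (4.55 to 4.62), so the signal was dim in both genotypes. Whether the probe set lies within the altered stretch of the gene is not known here.

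The E17R2 kidneys set homozygous against wild-type with 3 arrays each. In 8 of the 9 genes every homozygous kidney read below every wild-type kidney, whereas this held for 7.24% of all genes, and in none of the 9 was the order the opposite, which held for 5.05% of all genes. The log2 differences of those 8 genes ran from -0.57 for Lhx1 to -0.42 for Fgf8, and Wnt4 was the exception with -0.07. The limma fit, with Benjamini-Hochberg adjustment over all 18193 genes, called 0 genes at 0.05 (0% in either direction). At an unadjusted p under 0.05, 6 of the 9 genes were lower, against 3.08% of all genes, and 0 of the 9 were higher, against 2.52%. All 9 differences were below 0, as were 52.9% of those of all genes. With 3 arrays a group, an exact permutation test over arrays cannot give a 2-sided p below 0.1. The median over the 9 genes was -0.48, beside -0.01 over all genes.

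Promoter sequences were looked up for the 9 genes in a RefSeq table of build GRCm38.p6, which gave 1 window of 300 bases for each of 7 genes. Fgf8 and Irx1 were not matched. The 3 windows printed, which span the gene start and lie mostly before it, belong to Bmper, which had the smallest p in E17R2, to Pou3f3, and to Wnt4, the gene whose groups overlapped. Capitals mark matches to CTTTGA (or TCAAAG on the other strand), the core letters read by TCF and LEF factors of Wnt signalling, and to TGGGAA (or TTCCCA), those of the Notch effector RBPJ. The windows are chr9:23222826-23223125 on the + strand for Bmper, chr1:42695518-42695817 on the + strand for Pou3f3 and chr4:137277385-137277684 on the + strand for Wnt4.
Bmper: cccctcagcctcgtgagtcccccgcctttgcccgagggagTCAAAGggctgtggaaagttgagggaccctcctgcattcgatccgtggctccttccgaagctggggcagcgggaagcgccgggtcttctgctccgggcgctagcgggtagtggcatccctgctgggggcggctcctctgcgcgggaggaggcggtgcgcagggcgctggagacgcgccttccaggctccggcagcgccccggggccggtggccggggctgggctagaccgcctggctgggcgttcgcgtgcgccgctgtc
Pou3f3: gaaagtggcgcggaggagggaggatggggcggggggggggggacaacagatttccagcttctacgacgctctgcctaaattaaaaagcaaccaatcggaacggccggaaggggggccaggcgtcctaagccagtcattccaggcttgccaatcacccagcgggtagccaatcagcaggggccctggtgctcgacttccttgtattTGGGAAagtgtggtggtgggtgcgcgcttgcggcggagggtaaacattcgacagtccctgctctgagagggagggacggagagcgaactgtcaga
Wnt4: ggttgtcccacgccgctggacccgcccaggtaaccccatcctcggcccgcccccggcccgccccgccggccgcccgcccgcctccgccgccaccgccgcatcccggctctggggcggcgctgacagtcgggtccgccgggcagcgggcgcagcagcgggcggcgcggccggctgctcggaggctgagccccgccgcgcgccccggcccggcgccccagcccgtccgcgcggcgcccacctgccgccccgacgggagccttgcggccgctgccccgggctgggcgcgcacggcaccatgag

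The first motif was found in 1 of the 7 windows, that of Bmper, and in 16% of all 32851 windows of this length. The second was found in 3 of the 7, those of Irx2, Cdh6 and Pou3f3, and in 25.6% of all windows. The Wnt4 window, with a G and C content of 84.3%, held neither, and the Lhx1 and Pax8 windows held neither. A match is a description of letters in the window and not of a bound site.

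Among the signals, Wnt4 drives the change from mesenchyme to epithelium, and it is also made in medullary stroma, adrenal cortex and the female gonad. It read 9.19, 9.41 and 9.44 in wild-type kidneys and 9.36, 9.48 and 8.98 in homozygous kidneys. The groups overlapped, homozygous replicate 8 was the highest of the 6, and the log2 difference of -0.07 ± 0.15 (SE, limma adjusted p = 0.949) was smaller than the spread. A second Wnt4 probe set gave -0.03. Without homozygous replicate 9 the difference of the main probe set turned to 0.076 ± 0.11 (SE).

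Fgf8, the growth factor that keeps the cells of the early vesicle alive, had a dim probe set, at percentiles 30.9 to 41.7 of the 11 arrays. It read 5.32, 5.34 and 5.51 in wild-type and 5.17, 5.27 and 4.48 in homozygous kidneys. The groups did not overlap, but only 0.046 on the log2 scale separated the lowest wild-type from the highest homozygous value, and homozygous replicate 9 was far below the rest. The difference was -0.42 ± 0.21 (SE, limma adjusted p = 0.84), and -0.17 ± 0.10 (SE) without replicate 9. Bmper encodes a secreted protein that binds BMPs. It read 7.94, 8.08 and 7.84 in wild-type and 7.63, 7.53 and 7.26 in homozygous kidneys. Its difference of -0.48 ± 0.12 (SE, unadjusted p = 0.00662, limma adjusted p = 0.84) had the smallest p of the 9 genes. Without replicate 9 it was -0.37 ± 0.10 (SE), the largest of the 9 in that fit.

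Of the transcription factors, Lhx1 is needed for the renal vesicle to take on its pattern. It read 9.08, 9.04 and 8.96 in wild-type kidneys and 8.76, 8.72 and 7.87 in homozygous kidneys. The 2 homozygous kidneys other than replicate 9 lay close together and below all wild-type values. The log2 difference was -0.57 ± 0.24 (SE, limma adjusted p = 0.84), a wild-type level 1.49 times the homozygous one, and -0.28 ± 0.08 (SE), or 1.22 times, without replicate 9. A dimmer Lhx1 probe set gave -0.72 and -0.44.

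Pax8, a paired-box factor that acts in the early nephron lineage, was the steadiest gene in wild-type kidneys, with 8.61, 8.60 and 8.61. The homozygous kidneys had 8.39, 8.44 and 7.53, so the shift of replicates 2 and 8 was small and that of replicate 9 large. The difference was -0.48 ± 0.24 (SE, limma adjusted p = 0.84) with replicate 9 and -0.19 ± 0.075 (SE) without it. A dimmer Pax8 probe set gave -0.65 and -0.56. Pou3f3, a POU-domain factor of the tubule part of the S-shaped body and of the later loop of Henle, read 8.81, 8.82 and 8.76 in wild-type and 8.53, 8.54 and 7.89 in homozygous kidneys. Its difference was -0.48 ± 0.18 (SE, limma adjusted p = 0.84) and -0.26 ± 0.075 (SE) without replicate 9. The second Pou3f3 probe set, with signals of 3.13 to 3.61 on these arrays, gave 0.01.

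Irx1 and Irx2 are Iroquois homeobox genes of the middle part of the S-shaped body and belong to the same gene cluster. Irx1 read 6.95, 7.01 and 7.09 in wild-type and 6.59, 6.82 and 6.08 in homozygous kidneys. Irx2 read 5.84, 6.15 and 5.99 in wild-type and 5.61, 5.66 and 5.32 in homozygous kidneys. In both genes the wild-type values lay above all homozygous ones. The differences were -0.52 ± 0.19 (SE) for Irx1 and -0.46 ± 0.13 (SE) for Irx2, each at a limma adjusted p of 0.84. They were -0.31 and -0.36 without replicate 9. Replicate 9 minus the mean of the other homozygous kidneys was -0.31 for Irx2, the smallest gap of the 9 genes, -0.63 for Irx1 and -0.88 for Pax8, the largest.

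Cdh6, a cadherin of the renal vesicle and of the early proximal tubule, read 8.96, 9.12 and 8.98 in wild-type and 8.64, 8.78 and 8.32 in homozygous kidneys. The difference was -0.44 ± 0.13 (SE, limma adjusted p = 0.84) and -0.31 ± 0.10 (SE) without replicate 9. The dimmer Cdh6 probe set gave -0.31 and, without replicate 9, -0.19, and its groups overlapped.

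**Figure D1:**
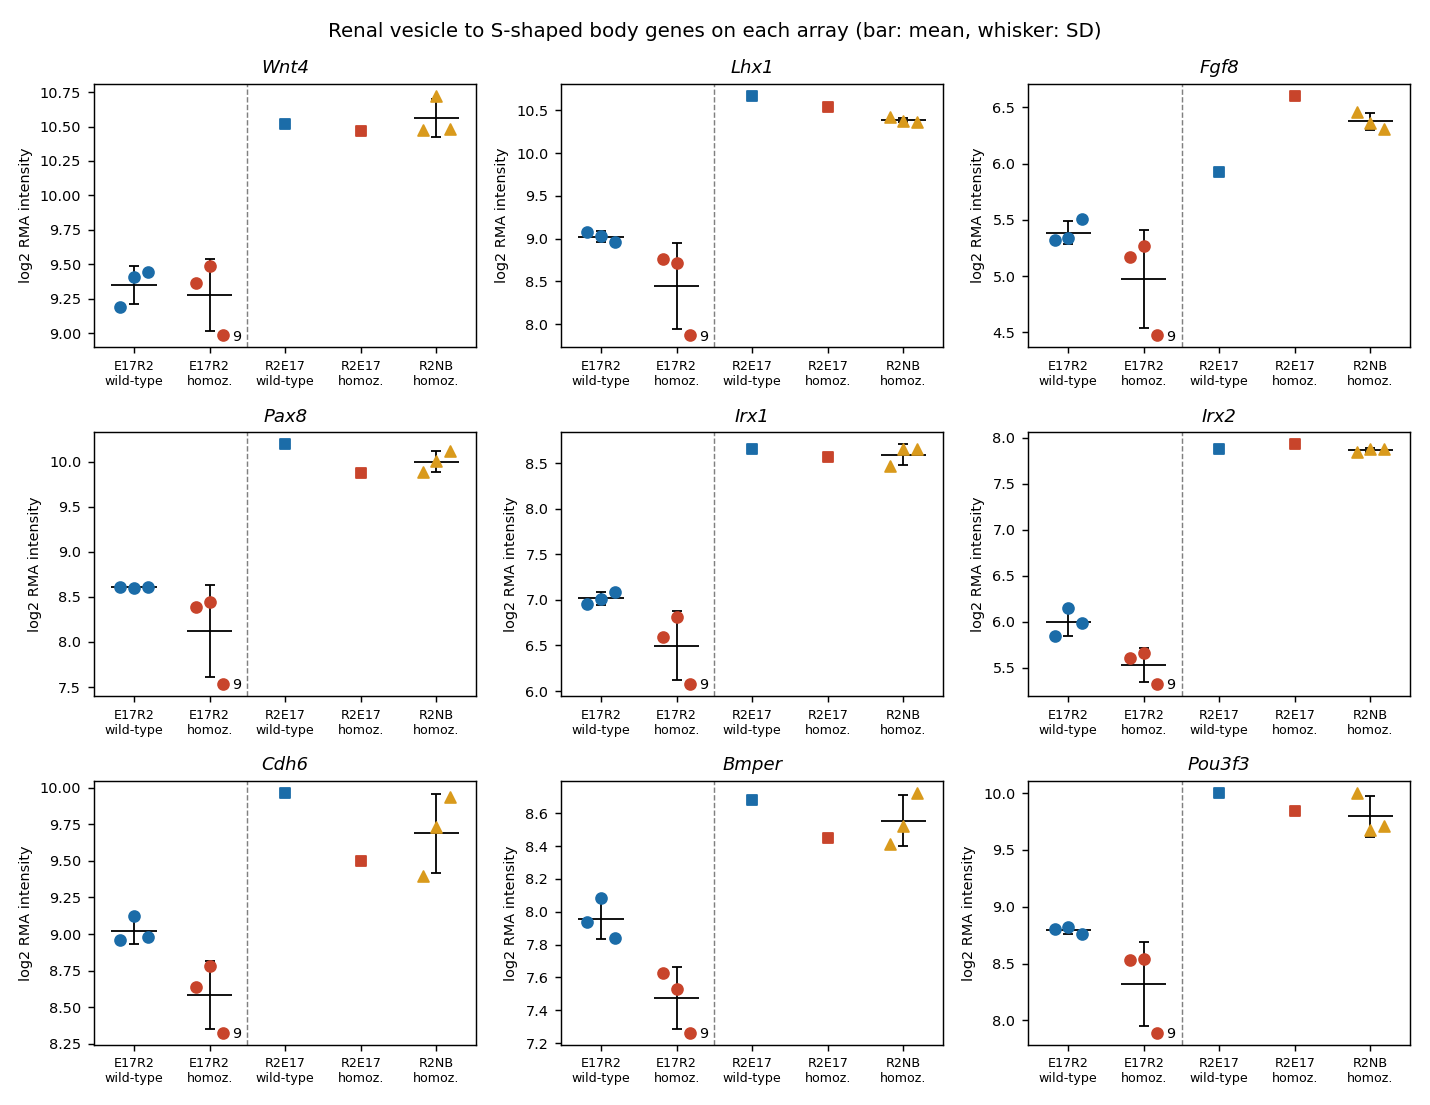
Each panel plots the log2 RMA intensity of 1 gene on every array, by title series and genotype, with the mean and SD of groups of 3 and homozygous replicate 9 marked; the vertical axes differ and the dashed line parts the 2 normalized sets, whose levels are not comparable. To the left of that line the 3 homozygous values lie below the 3 wild-type values in every panel except that of Wnt4.

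Replicate 9 was the lowest of the 6 E17R2 arrays in 9 of 9 genes, which held for 32.3% of all genes. Without it the homozygous kidneys read below every wild-type kidney in 8 of the 9 genes (10.6% of all genes) and above in 0 of the 9 (9.9% of all genes). Leaving out an array cannot undo a separation, so the count of 8 could not fall and is no check. Of the 9 differences 8 were then below 0 (49.6% of all genes), and 7 of the 9 had an unadjusted p under 0.05 with the lower value in homozygous kidneys (2.91% of all genes), with 0 of the 9 higher (2.87% of all genes). In that fit 0 of 18193 genes passed the adjusted threshold in limma. The median over the 9 genes was then -0.28, against 0.00 over all genes. Relative to the mean of the 6 arrays, the 9 genes lay on average at 0.17, 0.26 and 0.22 in wild-type replicates 1, 3 and 7, and at -0.06, 0.01 and -0.60 in homozygous replicates 2, 8 and 9.

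**Figure D2:**
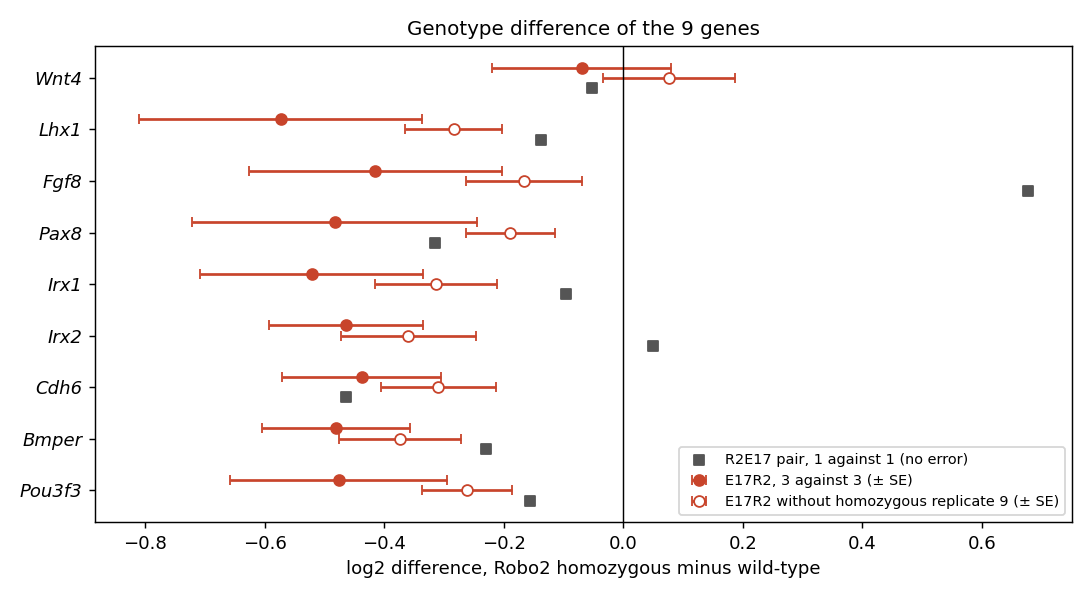
Log2 differences, Robo2 homozygous minus wild-type, of the 9 genes: filled circles use all 6 E17R2 arrays, open circles leave out homozygous replicate 9 (whiskers are SE from limma), and squares are the R2E17 pair, which has no error. Without replicate 9 the E17R2 differences of 8 genes are smaller in size, from -0.37 for Bmper to -0.17 for Fgf8, that of Wnt4 turns from -0.07 to 0.076, and the R2E17 square of Fgf8 lies at 0.68.

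Markers of other tissues were high on a single array or on a few, and their part in these differences was not tested. The 10 smooth muscle genes summed to an intensity of 41158 in replicate 9, against 4477 to 5892 in the other E17R2 kidneys, and all 10 had higher means in the homozygous group. Without replicate 9, 8 of the 10 differences were below 0 and their median turned from 0.94 to -0.26. Actg2, an enteric smooth muscle actin, read 12.76 in replicate 9. The 13 measured adrenal genes summed to between 1545 and 6797 in wild-type and between 1306 and 2578 in homozygous kidneys, and all 13 had lower means in the homozygous group. Wild-type replicates 1 and 3 had the adrenal list 1.70 and 1.52 above the set's mean and replicate 7 had it at -0.99. The 9 genes were at 0.17, 0.26 and 0.22 on wild-type replicates 1, 3 and 7. The median difference of the 9 genes was -0.48, -0.44 and -0.48 without wild-type replicate 1, 3 or 7. Leaving out an array is no test of adrenal content, whose part was not tested. The 9 measured skeletal muscle genes summed to 590.5 to 7131 in wild-type and to 265.5 to 9822 in homozygous kidneys, highest in wild-type replicate 7 and homozygous replicate 9. The 7 measured liver genes were highest in wild-type replicate 7, at 14094, and between 1832 and 6930 in the others. The 9 measured gonad genes summed to between 209 and 284 in wild-type kidneys and to as much as 1115 in homozygous kidneys, where replicate 2 was at 1.74 above the set's mean. No list had a gene at 0, since RMA intensities are all positive.

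The other genes of these stages were taken from a list of 30, of which 27 were measured. In 9 of the 27 the homozygous kidneys all read below the wild-type kidneys (7.24% of all genes), and 0 read above (5.05% of all genes). The adjusted threshold in limma was passed by 0. The list's median was -0.24, -0.12 without replicate 9 and 0.02 in the R2E17 pair. The 4 with the smallest p were Dll1, Notch1, Hey1 and Cdh4. The Notch ligand gene Dll1 was at 7.68 ± 0.08 (SD, n = 3) in the wild-type and at 7.08 ± 0.33 (SD, n = 3) in the homozygous kidneys, a difference of -0.60 ± 0.17 (SE). Notch1 (-0.35 ± 0.11, SE), its target gene Hey1 (-0.35 ± 0.12) and the cadherin gene Cdh4 (-0.42 ± 0.14) also had groups that did not overlap, all at a limma adjusted p of 0.84.

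The lists of pathways around single members were read in the same way, beside 7.24% of all genes lower and 5.05% higher without overlap. In the list of Wnt induction, 3 of 25 genes were lower and 2 of 25 higher without overlap, with a median of 0.01, and of 0.05 without replicate 9. The Wnt receptor gene Fzd8 was lower (-0.38 ± 0.14, SE) and the Wnt feedback gene Nkd1 higher (0.39 ± 0.16). Among 17 genes of FGF8 reception and feedback 3 were lower without overlap and 0 higher (median -0.07). Of the 17 differences 16 were below 0, and 11 without replicate 9, beside 52.9% and 49.6% of those of all genes. The 3 without overlap were Fgf8 itself, the receptor gene Fgfr4 (-0.58 ± 0.22, SE) and the feedback inhibitor gene Spry1 (-0.20 ± 0.12). Of the 25 BMP pathway genes 1 was lower without overlap, Bmper, and 3 were higher (median 0.02), with the protease gene Tll1 at 0.40 ± 0.08 (SE) and a dim signal of 2.20 in wild-type kidneys. None of these genes passed the adjusted threshold.

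Of the 19 paralogues measured, 2 were lower without overlap, both Iroquois genes, and the groups overlapped in 15. Among all genes 7.24% were lower and 5.05% higher without overlap. The median of the 19 paralogues was 0.04, and 0.01 without replicate 9. Of their differences 8 were below 0, beside 52.9% of those of all genes. Irx5 was at 6.72 ± 0.07 (SD, n = 3) in the wild-type and at 6.14 ± 0.29 (SD, n = 3) in the homozygous kidneys, with a difference of -0.58 ± 0.15 (SE) and -0.42 without replicate 9. Irx3 gave -0.39 ± 0.19 (SE) and -0.19. The dim Irx4 and Irx6, chosen after their values were seen to complete the family, gave -0.03 and -0.05. Without overlap 2 paralogues were higher, Cdh10 (0.70 ± 0.27, SE) and Lhx9 (0.31 ± 0.14), both with dim signals in wild-type kidneys (3.92 and 2.84).

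Lists of the cells before and after these stages are given beside the 9 genes. Their counts stand against 7.24% of all genes lower and 5.05% higher without overlap. Nephron progenitor genes, whose cells feed the renal vesicle, had a median of -0.16 with 2 of 18 lower without overlap, and a median of -0.02 without replicate 9. Of the segments that form from the S-shaped body, proximal tubule genes had a median of -0.62 (12 of 20 lower without overlap), loop of Henle genes -0.37 (6 of 12), podocyte genes -0.35 (6 of 15, with 1 higher) and distal tubule genes -0.34 (3 of 9). Without replicate 9 these 4 medians were -0.35, -0.25, -0.16 and -0.16. Endothelial genes had a median of -0.22 (7 of 12 lower) and stromal genes one of 0.27, with 6 of 11 higher and 0 lower. Without replicate 9 these medians were -0.17 and 0.14. In the R2E17 pair the proximal tubule list went the other way (median 0.75, 1 of 20 genes below 0), and so did the stromal list (median -0.23, 8 of 11 below 0). The pair's medians were 0.07 for the loop of Henle, 0.01 for podocytes, -0.29 for the distal tubule, 0.08 for nephron progenitors and -0.13 for endothelium. Examples from the E17R2 kidneys are the proximal endocytic receptor gene Cubn (-0.79 ± 0.25, SE), the podocyte phosphatase gene Ptpro (-0.81 ± 0.14) and the stromal receptor gene Pdgfra (0.41 ± 0.08). Cell cycle genes had a median of -0.04, with 0 of 11 lower without overlap, and one of 0.01 without replicate 9. The 15 genes of the ureteric bud and collecting duct had a median of -0.12 (3 lower; -0.06 without replicate 9), and the 8 nephron cadherins, Cdh6 among them, one of -0.14 (2 lower; -0.08 without replicate 9). Erythroid genes were at -0.13 (-0.23 without replicate 9) and the 12 brain genes at -0.03 (-0.12), each with 0 lower or higher without overlap.

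**Figure D3:**
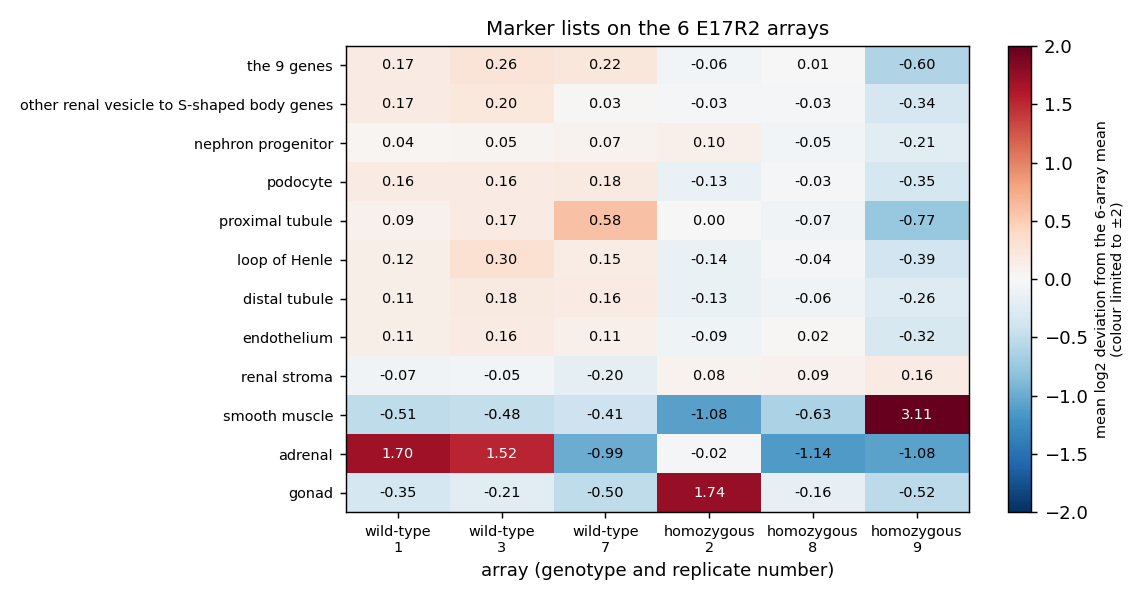
Rows are gene lists and columns the 6 E17R2 arrays; each cell is the mean log2 deviation of the list's genes from the mean of the 6 arrays, with colour limited to 2 in either direction. The 9 genes are at 0.17 to 0.26 in wild-type kidneys and lowest, at -0.60, in homozygous replicate 9, where smooth muscle genes are at 3.11.

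By the correlation of their values, centred within each normalized set, with the mean profile of the 9 genes over the 11 arrays, the 10 other genes most like it were Otulinl, Epb41l5, Agrn, Cxxc5, Lrba, Lama1, Podxl, Myo5b, Cldn5 and Irx5. Their Pearson correlations ran from 0.969 to 0.977, and from 0.888 to 0.963 with replicate 9 left out. Agrn and Lama1 encode basement membrane proteins, and Podxl encodes the surface sialomucin of podocytes. Of the 9 genes themselves Irx1 lay nearest to that mean (0.981) and Wnt4 farthest (0.696), and Wnt4 was at 0.207 without replicate 9. Each of the 9 is part of that mean, which raises its own correlation, so these values do not compare with those of the 10 other genes. The arrays share their normalization and replicate 9 weighs on all of these values.

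The R2E17 pair asks whether the same differences appear in the other title series, with 1 kidney of each genotype and no replicate check. In 7 of the 9 genes the homozygous array was the lower one, against 39.8% of all genes, and the median over the 9 was -0.14. That share is lowered by ties, which count as not lower. The pair had identical values in 5041 probe sets, and in 0 of the 9 genes. Cdh6 read 9.96 in wild-type and 9.50 in homozygous, a difference of -0.46. Pax8 read 10.19 and 9.88 (-0.32), Bmper 8.68 and 8.45 (-0.23), Pou3f3 9.999 and 9.844 (-0.16) and Lhx1 10.67 and 10.54 (-0.14). Irx1 (-0.10), Wnt4 (-0.05) and Irx2 (0.049) differed by little. A homozygous value at least 0.25 lower was found for 2 of the 9 genes, Pax8 and Cdh6, and for 12.5% of all genes. Fgf8 was higher on the homozygous array, at 6.60 against 5.93 (0.68).

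The wild-type array of this pair is the one that stood apart in its control probe sets, and the homozygous array carried skeletal muscle genes summing to 10162, against 441.6 on the wild-type array. The part of either in these values was not tested. The dimmer probe sets of the pair did not all follow the main ones: the second Lhx1 probe set gave 0.70, the second Pax8 probe set -1.37 and the second Cdh6 probe set -0.25. The difference between the title series was tested as an interaction in limma over the 8 arrays, with the single R2E17 arrays assumed to vary like the others. For Fgf8 it was 1.09 ± 0.42 (SE, limma adjusted p = 0.409) and for Irx2 0.51 ± 0.26 (SE, limma adjusted p = 0.53). Of the 9 genes 0 passed, against 0.044% of all genes, 1 (Fgf8) was at an unadjusted p under 0.05, against 11.3% of all genes, and the remaining 7 had adjusted p values of 0.783 to 0.995. With both title series in 1 fit of 8 arrays the median of the 9 genes was -0.42. At an unadjusted p under 0.05, 5 of the 9 were then lower (2.02% of all genes) and 0 higher (2.04%). With the R2NB arrays added, 7 of the 9 were lower (2.22% of all genes) and 0 higher (2.59%). These arrays are all homozygous and had their own term, so they left the differences unchanged. They altered only the estimate of spread and hold no genotype comparison.

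The R2NB kidneys carry the same genotype, tissue and age label as the other homozygous kidneys. Within the set of 5 their means differed from the R2E17 homozygous array by -0.23 to 0.19 over the 9 genes. Lhx1 read 10.42, 10.38 and 10.37 in the R2NB kidneys, below the R2E17 homozygous array at 10.54, a difference of -0.15 ± 0.04 (SE, limma adjusted p = 0.63). Fgf8 read 6.46, 6.37 and 6.30, between the R2E17 homozygous (6.60) and wild-type (5.93) arrays, with -0.23 ± 0.08 (SE, limma adjusted p = 0.727). The other 7 genes differed by -0.06 to 0.19. Cdh6 was the most variable of the 9 among the R2NB kidneys, with 9.40, 9.73 and 9.93, and replicate 5 lay beside the R2E17 wild-type array (9.96) rather than the homozygous one (9.50). For Bmper too, R2NB replicate 5 (8.72) was at the level of the wild-type array (8.68).

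Irx1 at 8.66 and Irx2 at 7.88 were identical on R2NB replicates 4 and 5 and the R2E17 wild-type array, so their spread in the set of 5 may be too small. Of all genes 0% passed the adjusted threshold between R2NB and R2E17 homozygous kidneys in either direction in limma, where 3.43% were higher and 3.88% lower at an unadjusted p under 0.05. Of the 9 genes 0 passed, and 1, Lhx1, was lower at an unadjusted p under 0.05. With the spread pooled over all 11 arrays 0.011% of all genes were called higher and 0 of the 9. R2NB replicate 4 had the highest sums of adrenal genes (14446) and liver genes (41218) of the 5 arrays, and R2NB replicate 5 that of skeletal muscle genes (11544). Their part was not tested. The single R2E17 homozygous array was assumed to vary like the R2NB arrays.

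The last comparison set the R2E17 and R2NB arrays against the E17R2 arrays. Since the sets lay on separate scales, each gene was given its percentile among the 18193 genes of its array, which is a rank of the probe set's signal and not of transcript abundance. Irx1 and Irx2 had the higher rank in the set of 5. Irx2 lay at percentiles 54.3 to 55.7 there and at 39.7 to 47.9 in the set of 6, a shift of 10.6 ± 1.27 points (SE, limma adjusted p = 7.2e-05). Irx1 lay at 63.5 to 67.4 and at 48.1 to 60.7, a shift of 9.53 ± 2.01 points (SE, limma adjusted p = 0.00261). Their ranks did not overlap between the sets. Both had identical values on R2NB replicates 4 and 5 and the R2E17 wild-type array. The SE and p of their shifts may therefore be too small.

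Bmper moved the other way, from percentiles of 64.6 to 75.0 in the set of 6 to 62.6 to 67.7 in the set of 5, with overlap. Its shift was -5.41 ± 1.92 points (SE, limma adjusted p = 0.0369), and it lost the call without 1 array in 6 of 11 cases: R2E17 homozygous replicate 6 (adjusted p = 0.0828), R2NB replicates 3 (0.0827) and 4 (0.0706), and wild-type replicates 1 (0.074), 3 (0.07) and 7 (0.0695) of E17R2. Lhx1 (5.88 ± 2.31, SE, limma adjusted p = 0.0547) and Pax8 (5.98 ± 2.42, adjusted p = 0.0602) did not pass, although their ranks did not overlap. Without homozygous replicate 9 they passed, at shifts of 3.74 and 3.76 points and limma adjusted p values of 0.00566 and 0.00759. Cdh6 (-3.32), Pou3f3 (1.45), Wnt4 (0.39) and Fgf8 (0.37) were at limma adjusted p values of 0.153 to 0.883.

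Read against all genes, of which 24.1% were higher and 26.2% lower in rank in the set of 5 at an adjusted p of 0.05, the 2 higher and 1 lower of 9 are near the background. Ranks without overlap and higher in the set of 5 were found for 4 of the 9 genes and 17.1% of all genes, and lower for 0 of the 9 and 17.1%. With the R2E17 arrays alone against E17R2, Irx1 and Irx2 were called higher (14.9% of all genes) and 0 of the 9 lower (14.5%). The set of 5 held 4 homozygous arrays of 5, and title series and normalization cannot be told apart. With genotype as a term in limma, Lhx1 (7.42 points, adjusted p = 0.0122) and Pax8 (7.49 points, 0.0172) passed as well. Between R2NB and E17R2 homozygous kidneys alone Irx1 shifted by 12.6 points (adjusted p = 0.0159) and Irx2 by 12.6 points (0.0024), where 16.3% of all genes were higher and 17.6% lower. Bmper did not pass there (-2.20 points, limma adjusted p = 0.375), nor with the R2E17 arrays alone (-5.22 points, adjusted p = 0.209).

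**Figure D4:**
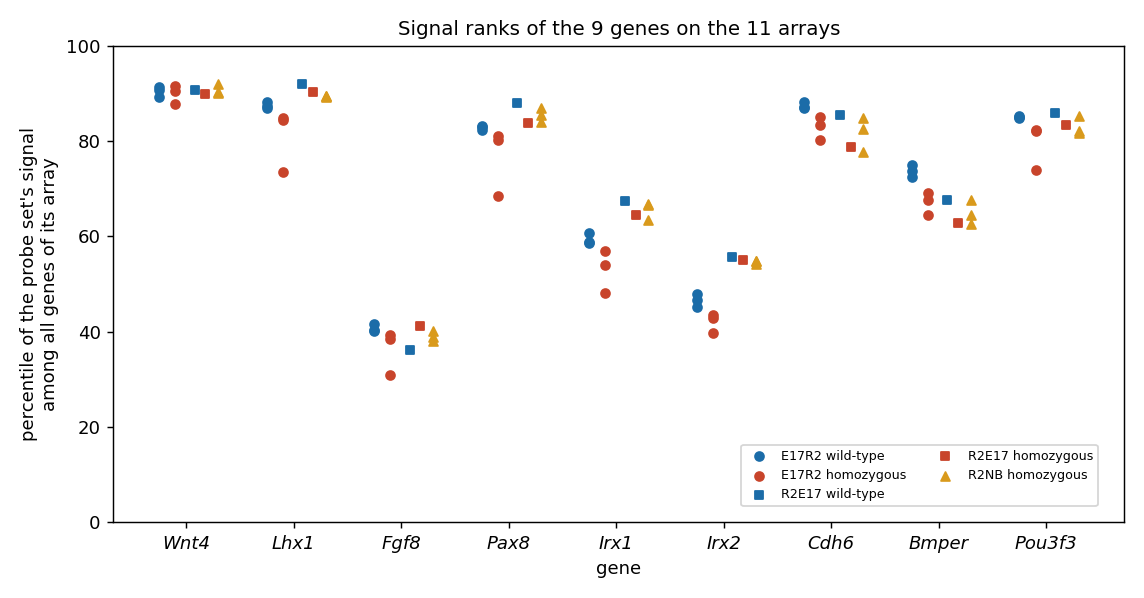
Percentile of each gene's probe set among the 18193 genes of its array, for every array by title series and genotype. Irx1 and Irx2 lie higher on all R2E17 and R2NB arrays (squares and triangles) than on any E17R2 array (circles), and Wnt4 lies at 87.7 to 92.1 throughout.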

How the data were processed

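Transcript levels were measured in 11 mouse kidney samples, each on 1 Affymetrix 3' array. The authors deposited linear intensity values, and RMA is the tool named in the submitters' processing notes, with no version or build. Log2 was taken with no pseudocount. Probe sets with exactly 1 gene symbol (34945 of 45101; 932 had several, 9160 none here, 64 were controls) were named from the platform annotation, updated for 34741 through a RefSeq table of GRCm38.p6. The brightest probe set stood for each gene. Genes were tested with limma 3.58.1 (R 4.3.3; lmFit, eBayes, 2-sided, Benjamini-Hochberg over 18193 genes, threshold 0.05) in the fits named in the report, with no filter on dim genes, and the fit was tested on simulated data. The number of arrays limits the precision. The 9 genes, the 24 gene lists and the tests were chosen with earlier results of these data known. The plan was to name Robo2 and the 10 most alike genes beside the 9 genes. From each list it took the genes past the threshold or up to 4 with the smallest p, and the 3 brightest from other-tissue lists. Not all of these list genes are named in the report, and those named are examples. Alternatives changed the arrays, fit, weights, probe set rule, filter, normalization or pseudocount. Lists were counted, not tested. The numbers in the titles of the 2 genotypes of E17R2 do not recur between them, so no pairing was made.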

Additional observations from a re-analysis of the deposited data

Results flagged for a closer look

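Fgf8 and Irx2 drew attention because the title series went opposite ways: every E17R2 homozygous kidney lay below the wild-type kidneys, whereas the homozygous array of the R2E17 pair was the higher one. That pair differed by 0.68 for Fgf8 and by 0.049 for Irx2 on the log2 scale, with 1 array a genotype. The interaction test in limma did not pass for either gene (adjusted p = 0.409 and 0.53).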

How the results depend on the processing

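In the E17R2 comparison, 141 of 143 values of the 9 genes over 16 alternatives were below 0, and none passed (smallest limma adjusted p = 0.359). The exceptions were Wnt4 without homozygous replicate 9 (0.076, with -0.17 at the other end of the leave-outs) and with array weights (0.11). The count of 141 includes repeated values, so it overstates how often the sign was checked. Trend and robust settings and leaving out dim genes kept the main differences (Lhx1 at -0.57). So did keeping all probe sets apart and leaving out those marked for cross-hybridisation. The fits of 11 and of 8 arrays shared the same differences (Lhx1 at -0.46). The median of the 9 genes ran from -0.56 to -0.28 with 1 array left out, was -0.42 with all 11 arrays and with the 8 arrays of both titles, and was -0.33 with array weights. The count of genes called was 0 to 1 with 1 array left out (Mrap, a gene of ACTH receptor traffic named after its value was seen, without wild-type replicate 7) and 0 under every other setting run. The number of the 9 whose groups did not overlap, tried after the data had been seen, was 7 with the mean of all probe sets and 8 otherwise. With 1 array left out it could not fall below 8.

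The interaction called 8 genes, and 22 with trend and robust settings. Without replicate 9 its sign turned for Wnt4 (-0.13) and Pax8 (-0.13). The rank shift called 9159 genes, 5349 with the R2E17 arrays alone and 5434 with dim genes left out, and 8151 to 9285 with 1 array left out. Without replicate 9 its sign turned for Wnt4 (-0.11), Fgf8 (-1.14) and Pou3f3 (-0.23), and without R2E17 homozygous replicate 6 for Fgf8 (-0.20). The other ends with 1 array left out were 0.68, 1.04 and 2.06 points. For R2NB against R2E17 homozygous, 2 genes (Ang and Rpgrip1, named after their values were seen) were called with the spread pooled over 11 arrays and 0 otherwise. With both R2E17 arrays as reference Fgf8 (0.11), Pax8 (-0.032), Irx1 (-0.016), Cdh6 (-0.042) and Bmper (-0.013) changed sign, as did Pou3f3 without R2NB replicate 4 (0.012; -0.15 without replicate 3). The cause was not tested for any of these. The low signal of Fgf8, and ties in the set of 5, limit what these values show.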
